A study of Mus musculus with 48 samples.

Results

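Exonic regions away from promoters are the peaks of open chromatin whose centre falls in an exon of a known RefSeq transcript (GRCm38, the mm10 build) and lies outside the window from 1000 bp before to 100 bp after every transcription start site (TSS). They were taken from the lists of single hematopoietic stem cell (HSC) daughter cells at a q value below 0.05 on chromosomes 1 to 19. Of 1232618 such autosomal peaks in 48 cells, 68221 were exonic by this rule, or 5.53%. The lists held 1285533 peaks at this threshold on all chromosomes and 4497932 regions with no threshold.

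The study sorted long-term HSCs from mice labelled B6.SJL (the methods name C57BL/6 for this assay), let each cell divide once in culture, and profiled both daughters by the assay for transposase-accessible chromatin with sequencing (ATAC-seq). Young mice were 10 to 12 weeks old and gave 14 divisions (28 cells), and aged mice were 20 to 26 months old and gave 10 divisions (20 cells). Sorted cells were LSK, CD34- and Flk2-, and were held for 40 to 44 h at 3% O2 and 5% CO2 with mSCF, GCSF and mTPO, each at 50 ng/ml per the labels, with no further treatment in either age. The animals are not named, so a division stands as the replicate, its value is the mean of its daughters, and p-values measure the spread between divisions and not between mice.

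An exon is a stretch of a gene that is kept in the mature RNA, and it carries coding sequence, untranslated sequence, or sequence of a noncoding RNA. First exons lie at the promoter end of a gene, where many genes have a CpG island that is free of nucleosomes. Inner exons are short, are richer in G and C than the introns around them, and are known to hold positioned nucleosomes. In ATAC-seq the enzyme Tn5 inserts adapters where DNA is not wrapped or bound, so a peak marks sequence that Tn5 reached in that cell, and the sequence preference of Tn5 and of amplification also enters.

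The 9 sequences here are examples of members from different places in a gene, picked after their values were seen. They are 30 bases of the reference at the centre of the highest member of regions that had a peak in most divisions. They are read along the strand of the gene, with each CG dinucleotide, the site of DNA methylation, in capitals. The members of the first exons of Tasp1 (chr2:140066674-140066703, minus strand), Casp2 (chr6:42265119-42265148, plus) and Itgb1 (chr8:128685760-128685789, plus) held 4 or 5 CG in these 30 bases. These were the most among the 8 first-exon regions that recurred most. Of the other 5, Lancl2 and Laptm4a held 3 and Ldlrad3, Rasa1 and Dhodh 1, and the first-exon members of Hoxb4, Dlgap3, Cd8a and Cebpe held 0. The inner coding members of Anxa5 (chr3:36461923-36461952, minus) and Fam78b (chr1:167078801-167078830, plus) held 0, and so did the last-exon members of Erlin1 (chr19:44035982-44036011, minus) and Bcl2l1 (chr2:152781328-152781357, minus). The last exon of Lars2 (chr9:123461986-123462015, plus) and the noncoding Gm10789 (chr16:90143967-90143996, plus) held 4 and 3 CG although their centres lay beyond 1 kb of a TSS. All positions are in GRCm38.
Tasp1: gtctcCGtatggtcCGgcaggccCGCGtgg
Casp2: tggaaatggCGgCGcCGagCGggaggtCGc
Itgb1: tCGctgaagagcCGccagaccCGCGgagCG
Anxa5: gagaagttaattgtggctatgatgaagccc
Fam78b: gaacaccaccaccaaggaaaagatcatact
Erlin1: cagtattatgtcataattgcaggaattatt
Bcl2l1: gccccagagctgttaatgacttcagctgcc
Lars2: gCGttcatagCGaCGtCGctttttgatcct
Gm10789: ggaggacaCGggagCGgggCGttcagagtt

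The number of members followed the depth of the cell. Exonic members ranged from 0 to 5007 per cell with a median of 1200, beside 1 to 92614 autosomal peaks with a median of 20812. Members were present in 43 cells and absent from the lists of 5 cells. Aged divisions of library set 4 (the sets are the leading numbers of the library names, and their meaning is not given) were the shallowest, with a median of 2.5 members per cell against 2389 in the aged cells of set 3. With at least 100 autosomal peaks in both daughters, 17 divisions were compared, 11 young and 6 aged, and they held 66426 members. Set 3 gave 7 young and 5 aged of these divisions, set 4 gave 2 young and 1 aged, and set 5 gave 2 young and no aged.

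Most members were as low as a peak can be. The pileup, the number of extended insertions that overlap at the summit, was 2 in 50339 of the 68221 members, and the highest pileup of a member was 33. The lowest −log10 q value of a member was 1.302, and the highest of an exonic region just outside the threshold was 1.297. The lowest pileup of a member was between 2 and 4 in different cells, and q was set within each cell. Pileups of members and of regions outside the threshold also overlapped within cells. In 3a5B, 3y7B and 4y1B the lowest member had a pileup of 2, while a region with a pileup of 5 stayed outside.

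The lists of different divisions were not independent of each other. The same start and the same end, to the base, were listed in at least 1 other division for 62993 members (92.3%), in the other age for 86.5% and in another library set for 80.7%. A match in another division counts every listed region, also those outside the q threshold. Among themselves, the 68221 members had 17978 distinct start and end positions. This was so for every kind of peak: intronic peaks reached 95.2%, intergenic peaks 95.8% and peaks in the TSS windows 83.6%. Among members the share was 96.2% at a pileup of 2, 84.1% at 3, 79.5% at 4 and 74.3% at 5 or more. Cases among the regions examined singly were inner or last exons with a median pileup of 2. In Casz1, a zinc finger gene, the same 259 bp of a noncoding last exon was listed in 25 of the 25 cells with a member there. The same region of exon 2 of Fam78b was listed in 24 of 25 cells, and that of exon 49 of Lrp1, an endocytic receptor, in 22 of 22. The cause of these shared ends was not tested. Every p-value over divisions below takes the divisions as independent, and some comparisons were repeated with the peaks whose start and end are listed in no other division, called private peaks here, an alternative chosen after seeing the data. These were the exonic share, the make-up by class, the 4 densities per base, sharing between sisters, GC content, pileup and single regions. Motifs, distances, the profile at inner exons, ratios at like GC content, recurrence and the counts of divisions per gene were not repeated in this way, and they include the peaks with shared ends.

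**Figure D1:**
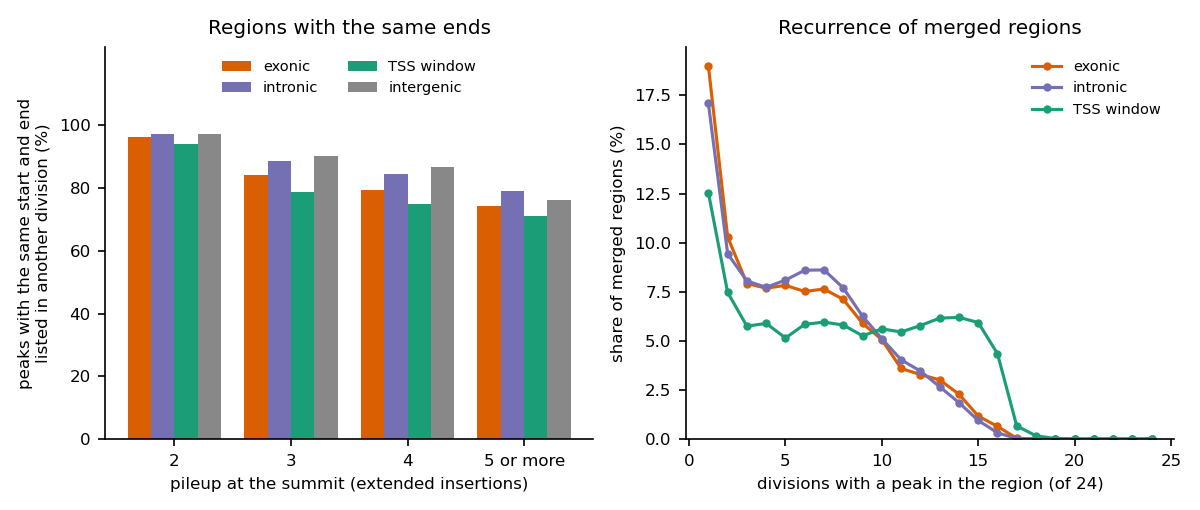
Left, the share of peaks (percent) whose start and end were both listed in another division, by pileup at the summit and by annotation class. Right, the share of merged regions (percent) against the number of the 24 divisions with a peak in them; exonic regions in 1 division made up 19.01% of 9621, and 1 region reached 18 divisions.

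Exons took a larger share of the peaks than of the genome. Exonic sequence outside the TSS windows made up 2.71% of the autosomal bases, and exonic members made up 5.69% ± 0.746 of the peaks (SD, n = 17 divisions). All 17 divisions lay above the genome share, from 1.62-fold to 2.67-fold. Peaks in the TSS windows took 16.1% ± 9.96 (12.9-fold), introns 36.6% ± 3.91 (0.956-fold) and intergenic sequence 41.6% ± 6.43 (0.720-fold).

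The age comparison asks whether the exonic share of open chromatin differs between divisions of young and aged HSCs. The share was 4.39%, 5.33% and 6.71% (lowest, median and highest) in the 11 young divisions and 5.63%, 5.85% and 7.22% in the 6 aged divisions. The means were 5.44% ± 0.705 and 6.16% ± 0.621, so the groups overlapped. The difference of −0.719 percentage points did not pass the threshold (exact permutation test, two-sided, p = 0.0548). Within set 3 it was −0.464 points (5.48% ± 0.435 in 7 young and 5.95% ± 0.379 in 5 aged divisions; exact permutation p = 0.0871). At a pileup of at least 3 in place of the q value the difference was −0.0537 points (permutation p = 0.897), with at least 1000 peaks in both daughters −0.0838 (0.790), and with private peaks −0.215 (0.493). When model transcripts were added to the known ones the difference was −0.660 points and passed the threshold (exact permutation p = 0.0312). It also passed when division 3a1, 3y6 or 5y6 was left out (exact permutation p = 0.0469, 0.0281 and 0.0169), and without 4a8 or 3a3 it was −0.506 and −0.630 points (0.160 and 0.111 by the same exact test). With only the daughter that has more peaks it was −0.277 points (exact permutation p = 0.165). The highest aged value, 7.22%, came from division 4a8, the only aged division of set 4, whose daughters held 12 and 14 members. The 2 lowest young values, 4.39% and 4.49%, came from 5y5 (1177 and 3 members) and 4y5 (5 and 11). Without 5y5 or 4y5 the difference was −0.614 and −0.624 points (exact permutation p = 0.0857 and 0.0868).

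**Figure D2:**
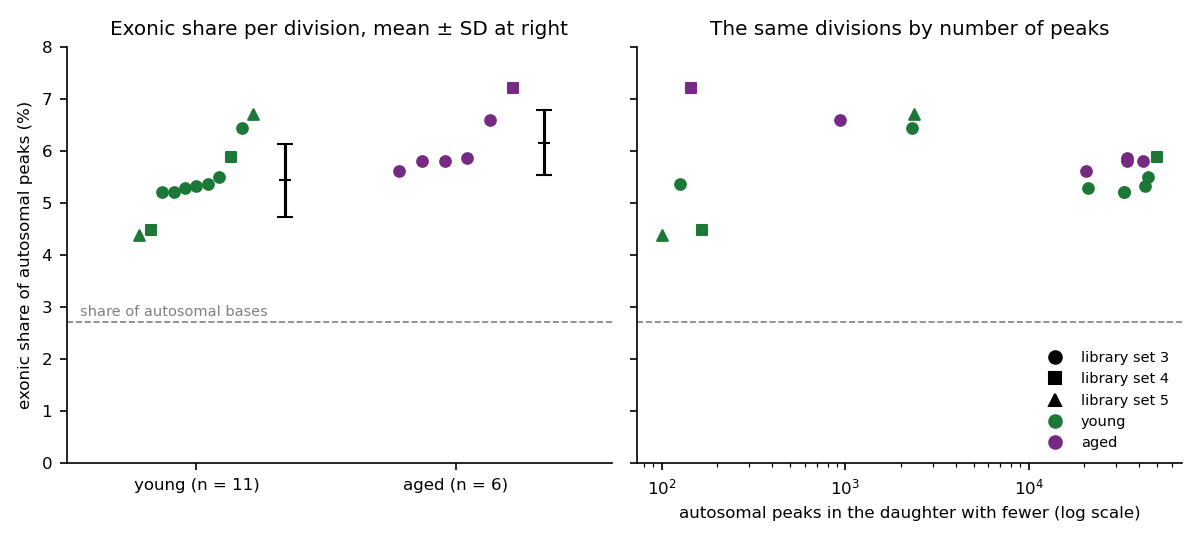
Exonic share of the autosomal peaks (percent) in the 17 divisions with at least 100 peaks in both daughters, by age with mean ± SD (left) and against the number of peaks in the daughter with fewer (right, log scale). Colours mark the age, symbols the library set, and the dashed line the 2.71% of autosomal bases that are exonic; young and aged points overlap and the divisions with few peaks spread most.

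By exon class, 26987 members (39.6%) lay in inner exons, 23800 (34.9%) in last exons, 14585 (21.4%) in first exons and 2849 (4.18%) in genes of a single exon. By sequence, 40582 (59.5%) were coding, 15037 (22.04%) lay in 3' untranslated sequence, 9087 (13.3%) in 5' untranslated sequence and 3515 (5.15%) in noncoding RNAs. The assignment of first, inner or last differed between transcripts for only 1058 members (1.55%). Counted by distinct start and end, the first exons rose to 30.9% and the inner exons fell to 34.4%.

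First exons held the densest members, close to the start site. Per base, the density of peaks in first exons was 11.1-fold ± 5.15 the autosomal mean (SD, n = 17), in inner exons 1.81-fold ± 0.468, in last exons 1.298-fold ± 0.340 and in single exons 1.94-fold ± 0.630. In 5' untranslated sequence it was 10.5-fold ± 5.55, in coding sequence 2.27-fold ± 0.334, in noncoding exons 1.39-fold ± 0.457 and in 3' untranslated sequence 1.18-fold ± 0.422. Of the 14585 members in first exons, 14113 lay within 1 kb of a TSS, so the class is in the main the part of the first exon that follows the promoter window. Exonic sequence downstream of a TSS held peaks at 29.6-fold the autosomal mean in its first 100 bp, which the rule leaves out. It held 14.9-fold at 101 to 200 bp, 10.99-fold in the next 100 bp, 5.63-fold at 301 to 400 bp and 2.20-fold at 901 to 1000 bp. Sequence that is not exonic held 9.29-fold, 6.12-fold and 5.32-fold in the same 3 steps from 101 to 400 bp. The window edge of 100 bp therefore lies on a slope of density that falls away from the promoter.

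The density in first exons was above that in inner exons in 17 of 17 divisions, by 2.55 ± 0.98 on the log2 scale (5.84-fold; exact sign-flip permutation test, p = 1.53e-05, the smallest this design can give). The size of this ratio depended on the annotation: with model transcripts added to the known ones it was 0.82 on the log2 scale, with the same p by the exact test. Last exons were below inner exons in 16 of 17 divisions (log2 −0.45 ± 0.45, 0.733-fold, exact sign-flip p = 0.00139). Coding sequence was above 3' untranslated sequence in 16 of 17 (log2 1.01 ± 0.58, 2.02-fold, exact sign-flip p = 3.05e-05). Beyond 5 kb of any TSS, exons were above introns in 15 of 17 (log2 0.71 ± 0.41, 1.63-fold, exact sign-flip p = 6.1e-05). Depending on the contrast, in 2 or 3 of the 17 divisions a daughter had no peak in 1 of the compared classes, and the added 0.5 peaks enter there. The 12 divisions with at least 1000 peaks in both daughters had at least 28 peaks in each class and gave the same direction in 12 of 12 for each contrast. All 4 contrasts also had the same direction with private peaks alone. In the 3 divisions of set 4 none could pass the threshold, since the smallest p there is 0.25.

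These classes also differ in base composition, and the comparison was repeated at like GC content. In this alternative, chosen after seeing the data, the peaks of the compared classes were expected to fall into either class in proportion to its windows within each of 20 classes of GC content. At like GC content first exons stayed above inner exons in 17 of 17 divisions, with a smaller ratio of 1.59-fold (log2 0.66 ± 0.30, exact sign-flip p = 1.53e-05). Distance to the TSS differs between these 2 classes as well. Within 1 kb of a TSS first over inner exons was 2.41-fold per base and at 1 to 5 kb 1.97-fold, where 4 and 5 of the 17 divisions had a daughter with no peak in 1 of the classes. At like GC content within these distances it was 1.24-fold (adjusted p = 0.0708, exact sign-flip test) and 1.07-fold (adjusted p = 0.261 by the same exact test), and neither passed the threshold. The other ratios came close to 1. Exons over introns gave log2 0.11 ± 0.52 (1.08-fold; above 0 in 15 of 17, exact sign-flip p = 0.413), last over inner exons −0.035 ± 0.47 (p = 0.797 by the same exact test), and coding over 3' untranslated sequence −0.023 ± 0.58 (exact p = 0.883). The spread came from divisions with a daughter of under 1000 peaks, in which a class holds few or no peaks: 4y5 and 5y5 had exon over intron values of −1.41 and −1.07 on the log2 scale, and the other 15 divisions lay between 0.18 and 0.38.

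In the 12 divisions (8 young, 4 aged) with at least 1000 peaks in both daughters, each ratio at like GC content lay nearer to 1 than per base. On the log2 scale exon over intron ran from 0.18 to 0.38 and first over inner exons from 0.40 to 1.19. Last over inner exons ran from −0.28 to 0.22, and coding over 3' untranslated sequence from −0.12 to 0.39. Exons were above introns in 12 of 12, at 1.24-fold (log2 0.30 ± 0.07, exact sign-flip p = 0.000488, the smallest this design can give). Coding sequence was above 3' untranslated sequence in 11 of 12, at 1.17-fold (log2 0.23 ± 0.14, exact sign-flip p = 0.000977). Last exons were below inner exons in 11 of 12, at 0.905-fold (log2 −0.14 ± 0.14, exact sign-flip p = 0.00879), and first exons above inner exons in 12 of 12, at 1.47-fold (0.55 ± 0.21). At like distance as well, first over inner exons was 1.44-fold within 1 kb (12 of 12, adjusted p = 0.000977, exact test) and 1.02-fold at 1 to 5 kb (6 of 12). With the expectation from the peaks of all classes, described below, it was 0.958-fold and 0.879-fold (3 of 12 each, adjusted p = 0.452 and 0.0654, exact tests). Last over inner exons was between 0.817-fold and 0.946-fold at the 5 distances; beyond 100 kb it passed the threshold (adjusted p = 0.00488, exact test), with an empty class in a daughter of 2 divisions, and at the others the adjusted p was 0.0651 or more. In the 17 divisions it passed within 1 kb (0.898-fold) and beyond 100 kb (0.875-fold), where 5 and 7 divisions had an empty class. The same 12 divisions gave 1.74-fold, 1.95-fold, 0.693-fold and 3.97-fold per base. GC content thus moved with the larger part of each ratio per base; its part in the accessibility was not tested. A GC expectation built from the peaks of all classes, the promoter windows included, gave −0.18, 0.33, 0.11 and −0.31 in the 17 divisions for exon over intron, first over inner, last over inner and coding over 3' untranslated sequence. In the 12 divisions it gave 0.082 (exact sign-flip p = 0.0361), −0.027 (above 0 in 4 of 12, exact p = 0.846), −0.018 (exact p = 0.757) and −0.17 (exact p = 0.00244). Against the ratios per base, 3 of the 4 directions turned in the 17 divisions, and in the 12 first over inner exons and coding over 3' untranslated sequence turned. By construction, promoter peaks raise what this expectation gives to every GC-rich class.

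**Figure D3:**
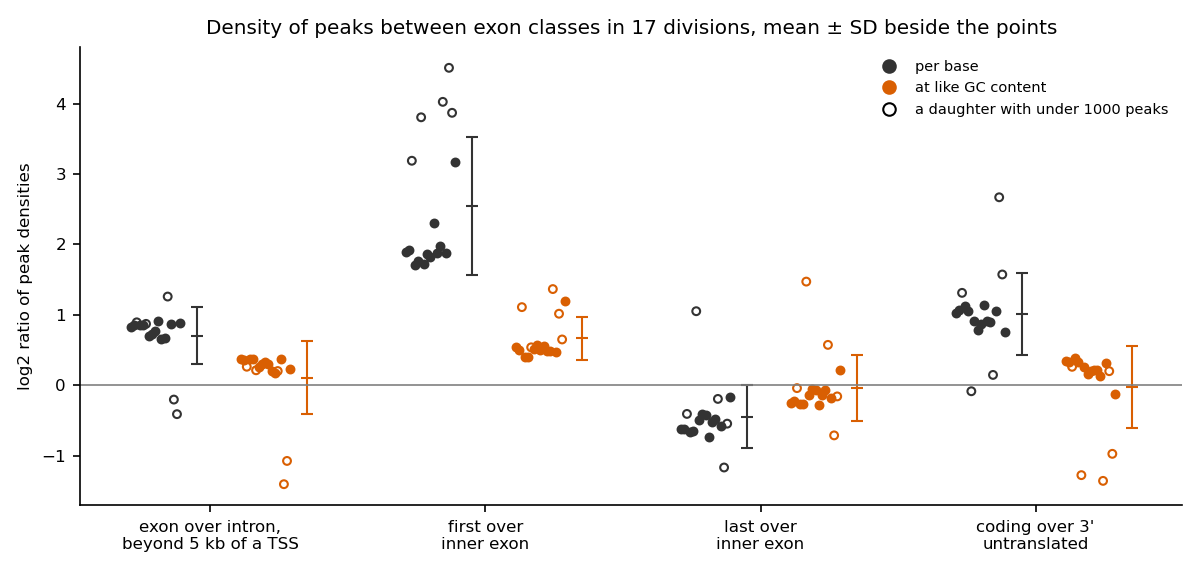
Log2 ratio of peak densities between exon classes in 17 divisions, per base (black) and at like GC content (orange), with mean ± SD beside the points; open points are divisions with a daughter of under 1000 peaks. Per base first exons lay above inner exons in every division, and at like GC content the filled points of the exon over intron contrast lie between 0.18 and 0.38.

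Exons were above introns at every distance from the TSS per base, and less evenly at like GC content. These values are from the 12 divisions with at least 1000 peaks in both daughters, called deep here, a choice made after seeing the data. Beyond 100 kb 5 of the 17 divisions had a daughter with no peak in 1 of the classes, and the added 0.5 peaks enter the ratio there. Per base the log2 ratio was 1.02 ± 0.11 within 1 kb, 0.68 ± 0.07 at 1 to 5 kb, 0.67 ± 0.07 at 5 to 20 kb, 0.74 ± 0.11 at 20 to 100 kb and 0.97 ± 0.16 beyond 100 kb, above 0 in 12 of 12 divisions at each (adjusted p = 0.000488, exact sign-flip tests with Benjamini-Hochberg adjustment). At like GC content from the compared classes the ratio was 1.16-fold, 0.975-fold, 1.14-fold, 1.29-fold and 1.47-fold in the same order, above 1 in 12, 5, 11, 12 and 12 divisions, with an adjusted p of at most 0.00122 except at 1 to 5 kb (0.107, exact tests). With the expectation from the peaks of all classes it was 1.01-fold, 0.846-fold, 0.983-fold, 1.14-fold and 1.28-fold. The ratio at 1 to 5 kb lay below 1 in 12 of 12 divisions (adjusted p = 0.00122, exact test), and those at 20 to 100 kb (12 of 12, adjusted p = 0.00122) and beyond 100 kb (11 of 12, 0.00163) above 1. Within 1 kb and at 5 to 20 kb the adjusted p was 0.691 by the exact tests. In the 17 divisions this expectation gave 0.032, −0.64, −0.19 and −0.072 on the log2 scale at the 4 distances up to 100 kb, and that from the compared classes 0.24, −0.33, 0.09 and 0.17. At 1 to 5 kb both passed the threshold below 0 (adjusted p = 7.63e-05 and 0.0396, exact tests), the second unlike in the 12 divisions. The 0.24 within 1 kb also passed (adjusted p = 7.63e-05, exact test), and the others up to 100 kb did not. Beyond 100 kb the 2 expectations gave 0.50 and 0.85, both past the threshold (adjusted p = 0.000954 and 7.63e-05, exact tests). Beyond 100 kb the smallest class in a daughter of a deep division held 1 peak.

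Peaks were also centred on inner exons. Around the centres of 126859 inner exons of at most 300 bp that lie beyond 5 kb of a TSS, the density of peak centres within 50 bp was 1.6005-fold that at 500 to 1000 bp away (log2 0.68 ± 0.27, higher in 17 of 17 divisions, exact sign-flip p = 1.53e-05). In 4 of the 17 a daughter had no peak in 1 of the 2 spans; the 12 deep divisions, with at least 10 peaks in each, gave 1.61-fold (log2 0.69 ± 0.16, 12 of 12). It was 1.81-fold ± 0.381 the autosomal mean in the 50 bp after the exon centre and between 0.895-fold and 1.299-fold at 500 to 1000 bp. The elevation lay mostly within 250 bp of the centre, and it was not corrected for GC content.

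**Figure D4:**
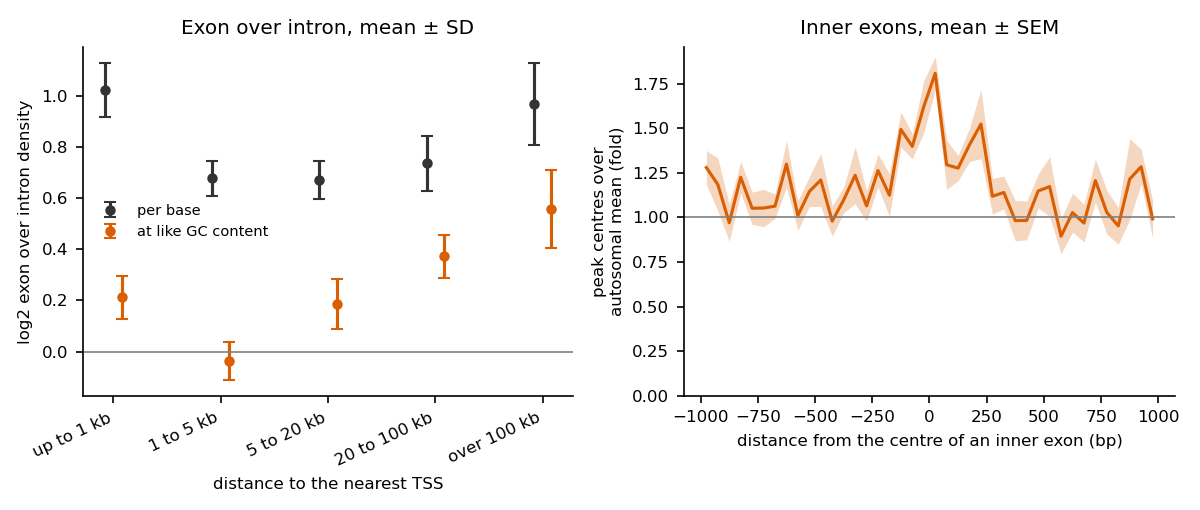
Left, log2 ratio of peak density in exons over introns by distance to the nearest TSS, mean ± SD of the 12 divisions with at least 1000 peaks in both daughters, per base (black) and at like GC content (orange). Right, density of peak centres around the centre of inner exons beyond 5 kb of a TSS, as a fold of the autosomal mean (mean ± SEM of 17 divisions), with its maximum of 1.81-fold at the exon centre.

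Members were richer in G and C than the exons they lie in. In windows of 150 bp the GC content of members was 57.4% ± 2.39 (SD, n = 14 divisions with at least 10 members in both daughters) against 48.1% for exon sequence, a difference of 9.30 points found in 14 of 14 divisions (exact sign-flip p = 0.000122, the smallest this design can give). They held 7.05 ± 1.03 CpG per window against 3.11. First-exon members reached 68.0% GC and 14.5 CpG, where first-exon sequence has 60.1% and 9.50. Inner-exon members had 54.8% against 50.1%, last-exon members 51.8% against 45.2%, and members in 3' untranslated sequence 49.9% against 43.7% with 2.32 CpG per window. The excess of GC was thus found within each class, and members beyond 5 kb of a TSS still had 52.3% ± 1.05. Private peaks showed it as well, with a difference of 13.2 points. The preference of Tn5 and of amplification for GC moves in the same direction and was not tested.

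Of 11 short motifs searched on both strands of windows reaching 100 bp to either side of a centre, the most enriched were NRF1 and the GC box, whose letters hold CG. The GC box (GGGCGG), bound by Sp factors, was present in 21.5% ± 6.55 of members and 5.79% of exon sequence windows (3.71-fold, 14 of 14 divisions). NRF1 (GCGCATGCG), a regulator of nuclear genes for mitochondria, was present in 0.306% against 0.0601% (5.08-fold, 13 of 14). The core motif of CTCF, the insulator protein, was present in 2.89% ± 0.380 against 1.19% (2.43-fold, 14 of 14). For these 3 the adjusted p was at most 0.000575 (exact sign-flip tests, Benjamini-Hochberg adjustment). Beyond 5 kb of a TSS the GC box fell to 9.10% of members and the CTCF core to 1.73%.

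Motifs of blood regulators were counted in members over exon sequence and in intronic peaks over intron sequence. PU.1 (GAGGAAGT), a factor of myeloid and B cells, was present in 2.17% of members against 1.33% (1.64-fold, 14 of 14), and in intronic peaks it was 2.49-fold above intron sequence. AGATAAG, the motif bound by GATA factors of HSCs and erythroid cells, was below exon sequence (1.37% against 2.04%, 0.670-fold, lower in 14 of 14) and level with intron sequence in intronic peaks (1.02-fold). RUNX (TGTGGTT) was at 0.847-fold in members (higher in 1 of 14, adjusted p = 0.0944, exact test) and at 1.38-fold in intronic peaks. The motif AP-1 (TGANTCA) was at 0.972-fold (adjusted p = 0.637 by the exact test, higher in 5 of 14), and the CCAAT box (CCAAT) at 0.815-fold. The E-box (CACGTG), the CRE (TGACGTCA) and the ETS motif (CCGGAAGT) were at 1.35-fold, 2.04-fold and 2.08-fold. Beyond 5 kb of a TSS the motifs below exon sequence were nearer to it or above it. Members there held RUNX in 4.00% and the CCAAT box in 23.2%, against 3.98% and 23.7% of all exon sequence. AGATAAG was in 1.74% against 2.04%, and AP-1 in 6.71% ± 5.45 against 4.96%. The exonic and intronic ratios were not tested against each other, and base composition differs between the backgrounds; a match marks letters and not a bound site.

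**Figure D5:**
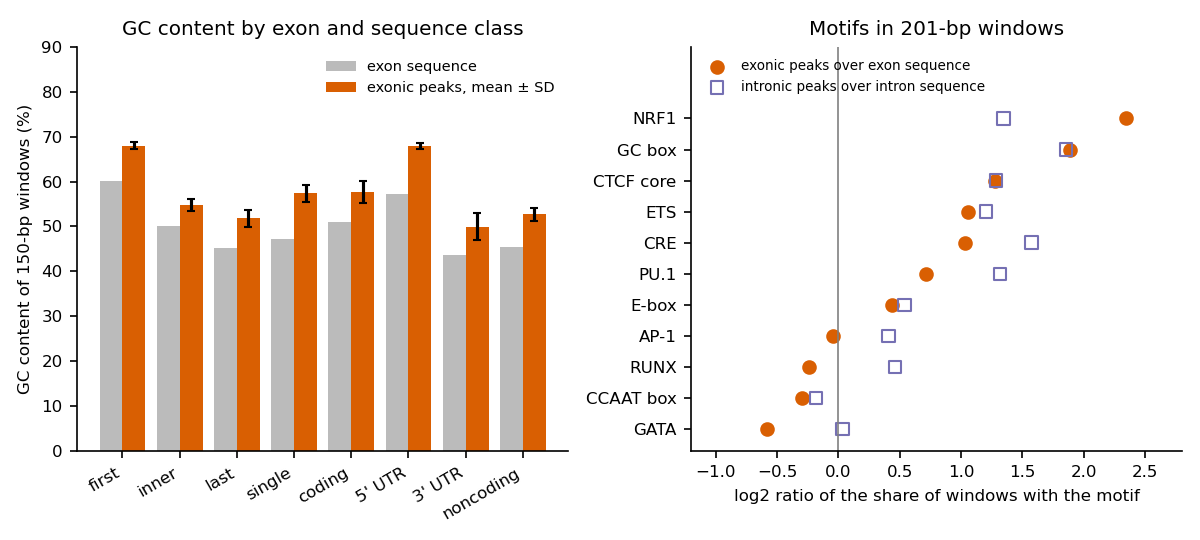
Left, GC content (percent) of 150-bp windows in exon sequence (grey) and at exonic members (orange, mean ± SD of divisions) by exon and sequence class. Right, log2 ratio of the share of windows (100 bp to either side) with a motif, exonic members over exon sequence (filled) and intronic peaks over intron sequence (open squares); the largest value is NRF1 in members, 5.08-fold.

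The make-up of the members by class was compared between 8 young and 6 aged divisions over 13 shares. First exons made up 24.3% ± 6.63 of the members in young and 29.97% ± 13.6 in aged divisions, inner exons 37.2% ± 3.598 and 35.0% ± 9.18, and last exons 34.3% ± 3.11 and 31.0% ± 4.57. Coding members made up 57.0% ± 3.56 and 55.0% ± 10.9, and members within 1 kb of a TSS 29.3% ± 6.07 and 34.9% ± 13.4. None of the 13 shares passed the threshold (exact permutation tests with Benjamini-Hochberg adjustment). The smallest unadjusted p was 0.141, for last exons, so 0 shares lay below 0.05 without adjustment too, and the smallest adjusted p was 0.704. Within set 3 (6 young, 5 aged) single exons made up 4.42% ± 0.313 and 3.95% ± 0.343 of the members (exact permutation p = 0.0411, adjusted 0.394), and no other share had an unadjusted p below 0.05. The aged spread came in large part from divisions with a shallow daughter, 4a8 and 3a3, in which first exons took the largest shares among the 6 aged divisions. The 7 contrasts within divisions (4 densities, GC content, pileup and sharing between sisters) gave no difference between ages past the threshold either; the smallest of their exact permutation p-values was 0.0969, for exon over intron (0.59 ± 0.45 in young, 0.92 ± 0.17 in aged divisions on the log2 scale).

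Single regions were then compared between ages by the number of divisions with a peak. Peaks merged over the 17 divisions gave 109864 autosomal regions present in at least 4 of them, of which 5962 were exonic. With Fisher's exact test and adjustment over all regions, 0 exonic regions passed, and 0% of all regions did. This count was close to fixed by the design: the smallest Fisher p that 11 against 6 divisions can give is 8.08e-05, so over 109864 regions none can pass unless many are completely separated. At an unadjusted Fisher p below 0.05 there were 91 exonic regions (1.53%), beside 1418 of all regions, or 1.29%. Among the 91, 16 were more frequent in young and 75 in aged divisions, against 304 and 1114 among all regions. These directions depend on the unequal group sizes. A peak in 4 of 6 aged and 0 of 11 young divisions gives a Fisher p of 0.0063. The same number of divisions, all young, gives a larger p, so regions in few divisions can be counted mainly toward aged. No lean toward an age is read from these counts. The smallest exonic p was 0.00541 for an exonic region of Dscam, a cell adhesion gene, named here after its values were seen: 1 of 11 young and 5 of 6 aged divisions had a peak there, with a pileup of at most 2 and an adjusted Fisher p of 1.

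Merged over all 24 divisions, the autosomal peaks of all classes formed 166549 regions. A region counts as exonic if its highest peak is a member, and each peak in it counts for its divisions and cells. First-exon regions can so include peaks of the TSS window beside them, and the part of such peaks was not tested. The exonic regions numbered 9621, with a median width of 214 bp. They were present in a median of 5 divisions and 6 cells, 1829 of them in 1 division and 1006 in 12 or more. Regions in the TSS windows were present in a median of 8 divisions, and intronic ones in 5. The exonic regions of first exons recurred more often than the other exonic ones, with 20.1% in 12 or more divisions, against 8.23% of inner and 8.77% of last exons. Their highest pileup had a median of 3, and in 75.5% of the inner-exon regions no cell had a pileup above 2.

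Of the 10 exonic regions found in the most divisions and cells, 8 were first exons; the last exon of Lars2, which led, and that of Erlin1 are described below. The first exon of Tasp1, the protease that cleaves MLL, had a region with a peak in 17 divisions and 28 cells. These were 12 of 14 young and 5 of 10 aged divisions, with pileups of 2, 5 and 9 (lowest, median and highest). Ldlrad3, a membrane receptor, had 26 cells in 10 young and 7 aged divisions with pileups of 2, 5 and 7. Lancl2 had 24 cells with 2, 5 and 13, and Casp2, a caspase of the DNA damage response, 24 cells with 2, 4.5 and 6. Rasa1, a GTPase-activating protein for Ras, had 28 cells with 3, 7.5 and 14, and its centre lay 283 bp after the TSS. Laptm4a, Dhodh, the pyrimidine synthesis enzyme, and Itgb1, the beta-1 integrin by which HSCs attach to the niche, each had 28 cells in 11 young and 5 aged divisions. Their highest pileups were 9, 6 and 6. All 8 centres lay within 1 kb of a TSS, from 117 bp in Tasp1 to 769 bp in Laptm4a, and had a GC content of 63.3% to 79.3%.

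Inner and last exons also recurred, often with the same ends. Exon 5 of Anxa5, which binds phosphatidylserine, had a coding region with a peak in 27 cells of 16 divisions. Its median and highest pileup were 4, and the ends were the same in 17 cells. Exon 2 of Cpa5, a carboxypeptidase, had 25 cells with a median and a highest pileup of 3 and the same ends in 20, and Fam78b 25 cells with a pileup of 2 in each. Erlin1, an endoplasmic reticulum protein, had a region in its 3' untranslated last exon with a peak in 28 cells. The median pileup was 2, the highest 3 and the GC content 40%. Anxa5, Fam78b and Erlin1 had these regions beyond 5 kb of a TSS, and Cpa5 at 1534 bp with a GC content of 57.3%. Bcl2l1, the survival factor Bcl-xL, had higher values: its 3' untranslated sequence, 21119 bp from the TSS, had 25 cells with a highest pileup of 8 and a median of 6. Among noncoding exons, Gm26684 had 26 cells and Gm10789 25, with highest pileups of 3 and 8.

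The highest pileups of all belonged to members with copies elsewhere. Lars2, the mitochondrial leucyl-tRNA synthetase, had a region in its last exon, 16701 bp from the TSS. It had a peak in 31 cells of 18 divisions, with pileups of 5, 11 and 29. Words of 30 bases from this region occur up to 8 times in the reference genome, so reads from the copies may be counted there, and its value is uncertain. Hbb-bs, an adult beta-globin gene, had a member in its last exon in 17 cells with pileups of 2 to 33 and a median of 4, the 33 in daughter 3a3A. Its words occur 2 times. The other named regions held words that occur 1 time, except that the region of Dscam was not checked.

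A gene could hold members in several exons of 1 cell. Ttn, the giant muscle protein with 314 merged exons, had members in 6 exons of cell 3a4A, each with a pileup of 2. Lrp1 had 5 exons of 89 in cell 3a1B, Dlgap3, a synapse scaffold, 5 of 13 in 3y2A, and Arid1b, a subunit of the SWI/SNF remodeler, and Epha5, an ephrin receptor, 4 exons each. Over the autosomes 7836 of 24963 genes (31.4%) had a member in at least 1 cell, and 1289 had members in at least 2 exons of 1 cell. Genes with a member had a median of 3456 exonic bases, against 2196 over all genes.

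Lists of marker genes were counted against this background of 31.4% of all genes, with a median of 0 divisions per gene. Of 20 HSC genes 14 had a member, with a median of 1.5 divisions, among them Lmo2 in 12 divisions and Fgd5 in 11. Kit, Procr, Hlf, Gfi1b, Slamf1 and Ly6a had none. Of 14 polarity and chromatin genes 11 had one, with a median of 5.5 divisions and of 6135.5 exonic bases. Kmt2a, Dnmt1, the maintenance DNA methyltransferase, and Kat7, a histone acetyltransferase, had a member in 13 divisions each, in young and aged alike (8 and 5, 9 and 4, 8 and 5). Of 22 genes of the homeobox clusters 13 had one, led by Hoxb4 in 12 divisions, Hoxa10 in 11 and Hoxa5 in 10.

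Among the lists of other cell types only the neuronal one had a share as large as that of the HSC list (77.8% and 70%); the others had 11.1% to 40%. Neuronal genes had members in 7 of 9, with a median of 6 divisions and of 4921 exonic bases: Grin1, a glutamate receptor, in 12 divisions, Rbfox3 in 10 and Camk2a in 8. Erythroid genes had 4 of 10, led by Ank1 in 15 divisions and Hbb-bs in 14 and followed by Nfe2 in 2, and megakaryocyte genes 3 of 10 (among them Pf4 in 7 and Itgb3 in 1). Myeloid genes had 3 of 13 (Itgam in 10, Cebpe in 7, Spi1 in 3), B cell genes 2 of 9 (Ebf1 in 5, Pax5 in 1), T cell genes 4 of 10 (Bcl11b in 13, Cd8a in 11, Cd3d in 9) and hepatocyte genes 1 of 9 (Apoa1 in 5). The 3 lists with the longest median exonic sequence (polarity and chromatin, neuron and HSC) had the 3 largest shares with a member. The HSC list (median 3397 bases) had 70% and the megakaryocyte list (3197.5 bases) 30%. The T cell list (2911.5) had 40% and the homeobox list (2328.5) 59.1%. The lists were not tested against each other, and the part of length in their shares was not tested.

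Members were shared between sister cells about as often as intronic peaks. In the daughter with fewer members, 60.8% ± 21.2 of the members overlapped a peak of the sister by at least 1 base (n = 14 divisions; lowest 0, median 63.6%, highest 91.6%), against 58.9% ± 20.7 of the intronic and 71.2% ± 22.3 of the TSS peaks. The difference between exonic and intronic peaks was 1.82 ± 6.76 points, above 0 in 7 of 14 divisions (exact sign-flip p = 0.401). Without division 3a3 the difference was 0.234 points (exact sign-flip p = 0.802). In 3a3 53.1% of the 64 members and 30.6% of the intronic peaks were shared. With all 14 divisions the difference turned to −0.443 when centres had to lie within 150 bp (exact p = 0.733). With private peaks it was 4.74 points and passed the threshold in 13 divisions (exact sign-flip p = 0.0437). Sharing was 68.1% ± 14.4 in 8 young and 51.0% ± 25.996 in 6 aged divisions; the lowest value, 0 of 12 members, was division 4a8, and within set 3 the means were 66.8% ± 13.4 and 61.2% ± 8.07. The mean log2 pileup of members was 0.05 ± 0.03 above that of intronic peaks of the same cells (1.04-fold, higher in 13 of 14 divisions, exact sign-flip p = 0.000488). The size of this difference is a few percent of the signal.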

How the data were processed

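Single-cell ATAC-seq peak lists of 48 daughter cells from 24 divisions were analysed. The authors trimmed adapters with cutadapt 1.9.1, aligned reads to mm10 with Bowtie2 and called peaks with MACS2 in each cell by itself (no version is stated for the last 2 tools, and no cutoff for peaks). The deposited signal is the pileup (coverage by extended insertions) at the summit, with no scaling to depth. The deposited fold enrichment is the ratio of the pileup to the local background of the cell. The deposited −log10 p-values and −log10 q-values come from the peak caller within each cell. Per-cell read depth was not used; the number of peaks stands for it, and a peak that is not listed may be missed at low depth.

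Known RefSeq transcripts of GRCm38 (43783 on autosomes) classified every autosomal base, with the order TSS window, exon, intron, intergenic, and for exons first, last, inner, single and coding, 5' untranslated, 3' untranslated, noncoding. Peaks were placed by their centre. Density is the share of peaks over the share of bases without N; in the log2 contrasts between classes 0.5 peaks were added per class and cell. Samples were grouped by the age in their titles, and divisions with at least 100 peaks in both daughters were used (10 members for shares among members). Tests were two-sided: exact permutation over divisions between ages, exact sign-flip permutation within divisions, Fisher's exact test per region with Benjamini-Hochberg adjustment over all regions. Peaks of all classes were merged into regions where they share at least 1 base, and a region took the class of its highest peak. The permutation, sign-flip, Fisher and Benjamini-Hochberg functions, the exon over intron density and the overlap rule were tested on simulated data. The annotation class was checked on a sample of the real peaks, and the other functions were not tested in this way. Python 3.11.15, numpy 2.4.6, pandas 2.3.3, scipy 1.17.1 and matplotlib 3.10.9 were used.

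Named genes are the 10 exonic regions present in the most divisions (1 per gene), the 3 such regions in each exon or sequence class, the 5 genes with members in the most exons of 1 cell, up to 3 genes of each list by divisions, and any region past the adjusted threshold between ages. The 10 lists hold markers of HSCs, of other blood cells, of hepatocytes and neurons, homeobox genes, and polarity and chromatin genes. The members and lists were chosen with earlier results of these data known. Alternatives changed the q value, the pileup, the minimum number of peaks, the library set, the transcripts, the GC expectation, the overlap rule, the pairing and each division in turn. Sex chromosomes were left out because they differ in copy number, and no sequence of chromosome 18 is printed.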

Additional observations from a re-analysis of the deposited data

Results flagged for a closer look

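Outlying divisions were looked for in 37 groups of values with Dixon's test at its 95% critical value, and 10 values lay beyond it, where chance gives about 1 in 20 groups. The aged division 4a8, with 12 and 14 members in its daughters, gave 6 of the 10. Its exon over intron ratio was highest of 6 at 1.26 on the log2 scale (the others 0.83 to 0.89), and its coding over 3' untranslated ratio lowest at 0.15 (1.03 to 1.31). It shared 0 of its members with the sister cell (52.2% to 69.5% in the others), and its mean log2 pileup of members was highest at 2.07 (1.19 to 1.49). Its shares of coding members, 33.3% (55.4% to 61.7%), and of members at 20 to 100 kb from a TSS, 4.17% (17.8% to 24.9%), were lowest.

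The young division 5y6, in which 1 daughter held 2374 autosomal peaks and the other 76614, was lowest of 8 in the shares of inner exons (28.5%, the others 37.5% to 39.6%), single exons (3.00%, 4.01% to 4.82%) and coding members (48.7%, 56.6% to 60.2%). The aged division 3a3, with 935 peaks in 1 daughter, was lowest of 6 in the share of members at 1 to 5 kb (8.09%, 13.6% to 16.1%). All of these divisions have a daughter with few peaks; the part of depth in the values was not tested. No contrast within divisions passed the threshold between ages among the 7 checked.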

How the results depend on the processing

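GC content and pileup kept their direction and their side of the threshold under every alternative run. For composition the count stayed at 0. For single regions it was 0 too, which the few divisions all but fix (smallest Fisher p 8.08e-05 with 11 against 6 divisions and 0.00126 with 7 against 5). An unadjusted Fisher p below 0.05 was found for 6 to 149 exonic regions. The 149, within set 3, were of 5322 exonic regions, beside 2552 of all 99189 regions. The 6, with private peaks, were of 185 exonic regions, beside 73 of all 2500. The exonic share kept its sign in 8 of 8 alternatives, from −0.694 to −0.0537, and passed the threshold with model transcripts (−0.660); the cause was not tested. Leaving out each division in turn gave −0.846 to −0.506 for the exonic share, 0.67 to 0.78 (log2) for exon over intron, 2.42 to 2.60 for first over inner, −0.54 to −0.40 for last over inner and 0.91 to 1.08 for coding over 3' untranslated density. For sharing between sisters it gave 0.234 to 2.43 points, for GC content 8.78 to 9.45 points, for log2 pileup 0.05 to 0.06, and for composition 0 to 0. With 1 planned choice changed at a time, first over inner exon density ran from 0.33 (GC expectation over all peaks) to 3.67 (pileup of at least 3), with 0.82 when model transcripts were added; that GC expectation with at least 1000 peaks turned it (−0.027, exact p = 0.846).

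The GC expectation over all peaks turned exon over intron (−0.18), last over inner (0.11) and coding over 3' untranslated density (−0.31). From the compared classes alone, an alternative chosen after seeing the data, these were 0.11, −0.035 and −0.023, none past the threshold; the added minimum of 1000 peaks brought all 3 past it in the direction found per base. In set 4 alone the 4 densities were 0.64, 3.47, −0.65 and 1.29 over 3 divisions, too few to pass. Sharing between sisters turned with centres within 150 bp (−0.443) and passed the threshold with private peaks (4.74, also chosen after seeing the data); the cause was not tested.

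With the replicate block, pairing divisions of set 3 that share a number, the exonic share differed by −0.694 over 4 pairs (exact p = 0.125, the smallest 4 pairs allow), and 0 shares of the composition differed over 3 pairs, too few to pass. The deviations of same-numbered divisions over 13 shares correlated with r of 0.928, −0.676 and 0.816, and 0 of 3 correlated best with their own number. With 3 pairs this cannot tell whether same-numbered divisions share more than a number. Age comparisons in set 4 alone were not run, since it holds 2 young and 1 aged divisions. Depth limits all lists: members absent from a shallow cell may be missed.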
